A study of Mus musculus with 6 samples.

Results

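The myelin structural genes described here are Mbp, Mobp, Mag, Mog, Cnp, Cldn11, Mal, Ermn and Opalin, 9 of the 32285 genes counted in every library, chosen by name as genes whose proteins build or anchor the myelin sheath. They were followed through single-nucleus RNA-seq libraries of NeuN-negative nuclei, that is, nuclei sorted away from most neurons, from the cortex of 7.5-month-old mice. The 6 libraries formed 3 groups of 2 (replicates 2 and 3): 5xFAD-P522R, 5xFAD-M28L and 5xFAD. All groups carried 5xFAD, mutant human transgenes, APP among them, driven by the neuronal Thy1 promoter that give amyloid plaques, and no mouse without 5xFAD was measured. P522R and M28L are variants of phospholipase C-γ2 (Plcg2), an enzyme that in brain is found mainly in microglia. Each library mixed nuclei of male and female mice, and the labels do not say how many mice a library holds, so every p-value below measures the spread between libraries of a group.

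Oligodendrocytes wrap axons in many turns of compacted membrane. They arise from oligodendrocyte precursor cells (OPCs) through committed precursors that have left the cell cycle and begin to make myelin, and the transcription factors SOX10 and MYRF switch on the myelin genes during that passage. Mbp encodes myelin basic protein, which holds the cytoplasmic faces of the membrane together, and its mRNA is carried out into the processes. Mobp encodes a further basic protein of compact myelin. Mag and Mog encode adhesion proteins of the innermost and the outermost wrap. Cnp encodes an enzyme that keeps cytoplasmic channels in myelin open, Cldn11 the tight junction protein of the sheath, Mal a membrane-sorting proteolipid, Ermn a cytoskeletal protein of late oligodendrocytes and Opalin a glycoprotein of the paranodal loops.

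The start sites of 8 of the genes were read from the RefSeq promoter table (GRCm38.p6), which gave 10 windows of 300 bases, 250 before and 50 after a start; the window of Mbp is not shown. The windows are shown because the genes share their place along the lineage, and they were searched on both strands for CTGGCAC, the core of the MYRF motif, and for ACAAAG, a core of SOX motifs. Neither string contains the other, though their ends could overlap by a pair of letters. CTGGCAC was found for 3 of the 8 genes, Cnp, Mag and Opalin, and for 5.73% of the 27025 genes in the table, in 5.01% of its 32851 windows. A window of each follows, with CTGGCAC or its complement GTGCCAG in capitals.
Cnp, chr11:100574689-100574988, plus strand: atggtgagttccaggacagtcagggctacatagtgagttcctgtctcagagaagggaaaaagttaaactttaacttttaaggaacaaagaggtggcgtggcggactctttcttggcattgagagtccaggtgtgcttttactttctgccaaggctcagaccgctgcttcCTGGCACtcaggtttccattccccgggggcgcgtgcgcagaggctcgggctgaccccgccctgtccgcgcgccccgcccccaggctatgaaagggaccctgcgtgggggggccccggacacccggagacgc
Mag, the first of its 3 windows, chr7:30914814-30915113, minus strand: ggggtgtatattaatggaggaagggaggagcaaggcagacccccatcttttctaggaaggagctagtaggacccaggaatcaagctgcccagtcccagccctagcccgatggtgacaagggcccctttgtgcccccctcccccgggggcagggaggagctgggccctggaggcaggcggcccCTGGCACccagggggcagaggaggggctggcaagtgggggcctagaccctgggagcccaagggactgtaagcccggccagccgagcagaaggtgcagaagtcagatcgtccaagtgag
Opalin, chr19:41077064-41077363, minus strand: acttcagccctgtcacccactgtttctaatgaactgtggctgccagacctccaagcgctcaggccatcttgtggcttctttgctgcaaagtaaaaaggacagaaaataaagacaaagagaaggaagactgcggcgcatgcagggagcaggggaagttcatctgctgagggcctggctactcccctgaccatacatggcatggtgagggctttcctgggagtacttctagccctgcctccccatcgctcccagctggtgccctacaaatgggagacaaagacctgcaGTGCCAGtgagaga
ACAAAG was found for 4 of the 8 genes (Mag, Mobp, Cnp and Opalin) and for 21.0% of all genes, in 18.7% of all windows. The window of Mobp held 6 matches, all on the complementary strand as CTTTGT, and it was the 1 window of the 32851 with so many. It is shown with these in capitals, since no other gene of the set had more than 2.
Mobp, chr9:120149492-120149791, plus strand: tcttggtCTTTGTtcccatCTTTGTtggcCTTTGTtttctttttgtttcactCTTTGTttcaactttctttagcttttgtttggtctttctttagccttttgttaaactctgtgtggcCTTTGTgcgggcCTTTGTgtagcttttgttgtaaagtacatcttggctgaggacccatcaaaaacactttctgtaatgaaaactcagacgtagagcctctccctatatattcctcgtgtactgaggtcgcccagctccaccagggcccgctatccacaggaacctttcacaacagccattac
The windows of Mog, Cldn11, Mal and Ermn held neither string. A match describes the letters of the window and not binding.

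The libraries held 9269 to 13783 barcodes and 53326947 to 72288942 UMIs (unique molecular identifiers, each a counted RNA molecule), with a median of 3842 to 4972 UMIs a barcode. After filters and removal of 2566 called doublets, 60085 nuclei remained. They formed 32 clusters, made without the 9 genes, and 56604 nuclei lay in clusters that carried enough markers of 1 type to be named. Of 62687 barcodes, 481 occurred in 2 libraries and 22 in 3. Per the file headers, 5xFAD-P522R replicate 3 was counted with Cell Ranger 5.0.1 and the other 5 libraries with 6.1.2. A software difference and the library therefore cannot be told apart. Log2 fold changes without that library are given for Mbp and Mobp in astrocyte-like nuclei and for Mbp and Opalin in microglia-like nuclei. Other levels and shares of 5xFAD-P522R are given with it only. Oligodendrocyte-like nuclei, named from 16 markers such as Aspa and Hapln2 that are not among the 9 genes, numbered 31062 and made up 57.7% and 56.2% of kept nuclei in 5xFAD-P522R, 52.5% and 53.8% in 5xFAD-M28L, and 48.3% and 42.5% in 5xFAD (replicates 2 and 3). They held 75.8% to 83.1% of all UMIs of the 9 genes in a library. Nuclei with UMIs of Xist and none of Y-linked genes are called Xist-positive, and the reverse Y-positive. Among such oligodendrocyte-like nuclei, Xist-positive ones made up 58.9% and 58.7% in 5xFAD-P522R, 66.6% and 64.8% in 5xFAD-M28L, and 57.5% and 52.3% in 5xFAD. The mix of sexes was thus not equal between libraries. Fits on nuclei of 1 sex are among the alternatives given at the end.

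Along the lineage, all 9 genes were lowest in OPC-like nuclei and highest in oligodendrocyte-like nuclei in each of the 6 libraries, with 38 to 72 committed precursor-like nuclei a library in between. Levels are given as CPM, a gene's UMIs as a share of all UMIs of a library's nuclei of that type on the usual scale, and replicates 2 and 3 are given in that order. Clusters were defined on the same nuclei, so the differences between types are described and not tested. Mbp reached 140 and 117 CPM in OPC-like nuclei of 5xFAD-P522R, 80.8 and 138 in 5xFAD-M28L, and 80.9 and 57.8 in 5xFAD. In committed precursor-like nuclei it reached 2113 and 1162 CPM in 5xFAD-P522R, 1789 and 3139 in 5xFAD-M28L, and 1413 and 2003 in 5xFAD. In oligodendrocyte-like nuclei it reached 3660 and 3418 CPM in 5xFAD-P522R, 3855 and 3783 in 5xFAD-M28L, and 3590 and 3701 in 5xFAD. The 6 libraries of each stage were thus separate from those of the next in Mbp.

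**Figure D1:**
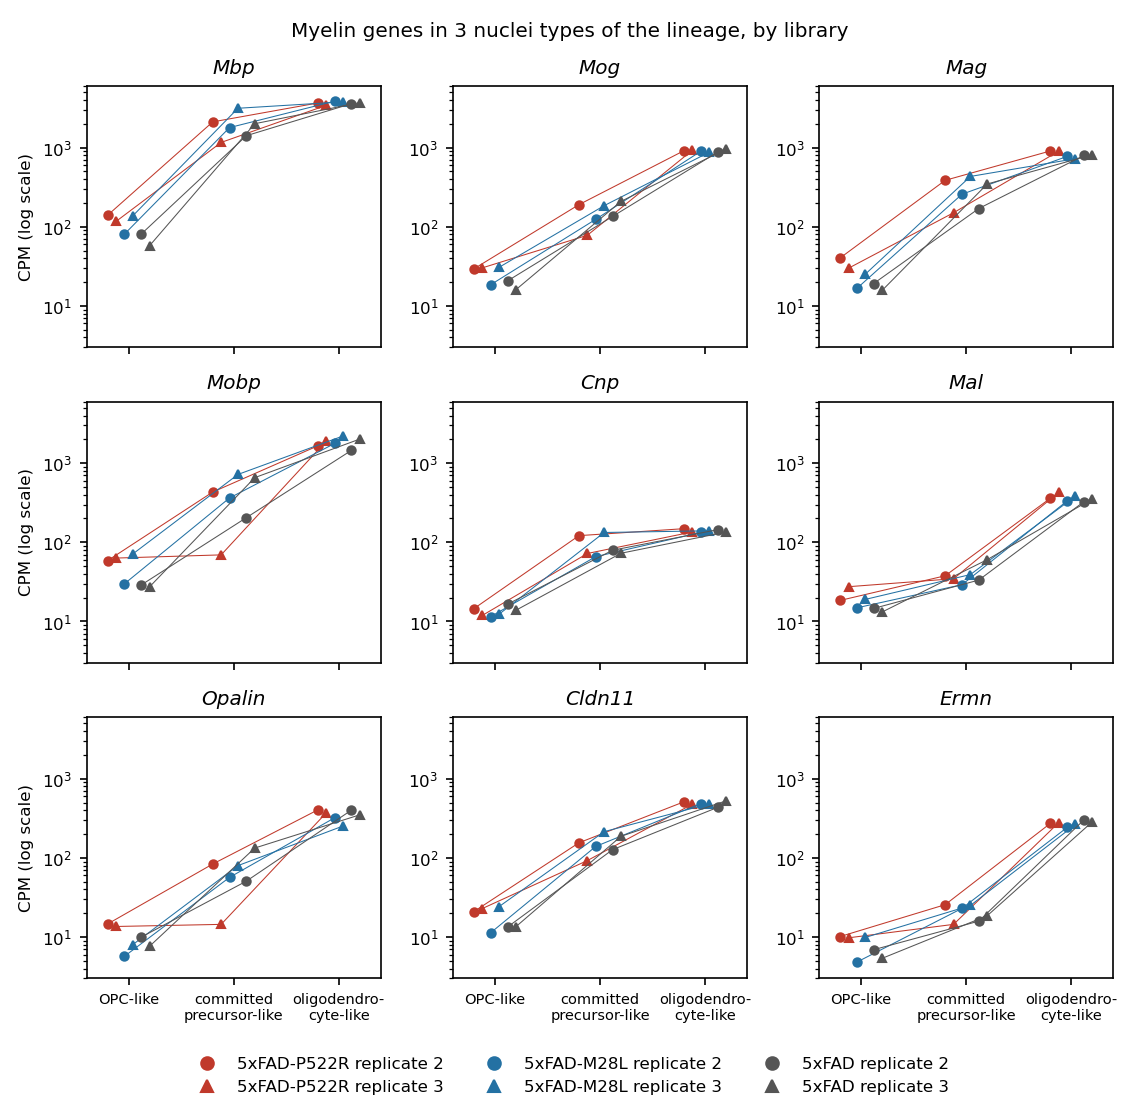
Level of each of the 9 genes (CPM, log scale) in OPC-like, committed precursor-like and oligodendrocyte-like nuclei, 1 line for each library, coloured by group with circles for replicate 2 and triangles for replicate 3. Mbp and Cnp come closest to their final level in committed precursor-like nuclei, whereas Mal and Ermn stay low until the oligodendrocyte-like stage, and Mobp and Opalin stay near the OPC level in 5xFAD-P522R replicate 3.

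The genes did not come up in step. As a share of the level in oligodendrocyte-like nuclei of the same library, the median over 6 libraries in committed precursor-like nuclei was 54.5% for Cnp (range 49.5% to 95.2%) and 50.3% for Mbp (34.0% to 83.0%). The adhesion gene Mag followed at 38.0% (16.7% to 59.7%) and the tight junction gene Cldn11 at 29.8% (19.4% to 44.5%). Mobp stood at 23.3% (3.66% to 32.7%), Opalin at 19.2% (3.91% to 38.0%) and Mog at 18.1% (8.42% to 21.7%). Mal at 10.2% (8.12% to 17.1%) and Ermn at 7.96% (5.19% to 9.50%) came last. Neighbours in this order overlapped in their ranges, and Mobp, Opalin and Mog changed places between libraries, but Cnp and Mbp held the first 2 places in all 6 libraries, with Mbp ahead of Cnp in 5xFAD replicate 3 and behind it in the other 5. Ermn was among the last 3 in all 6. Cnp was also the gene with the highest share in OPC-like nuclei, a median of 9.30% (Cnp overlaps the gene Dnajc7, as described with the other types), whereas the other 8 stood between 2.62% and 4.72% there.

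Committed precursor-like nuclei of 5xFAD-P522R replicate 3 were the fewest, 38 nuclei, and the lowest in several genes. Mobp had 24 UMIs there, or 69.4 CPM with an exact 95% Poisson interval of 44.4 to 103, against 432 CPM in replicate 2 of that group, 363 and 720 CPM in 5xFAD-M28L, and 205 and 656 CPM in 5xFAD. Opalin had 5 UMIs, or 14.5 CPM with an interval of 4.69 to 33.7, against 83.7 CPM in replicate 2 of that group, 56.7 and 79.8 CPM in 5xFAD-M28L, and 50.8 and 133 CPM in 5xFAD. These intervals cover counting error only. The libraries of all 3 groups overlapped in both genes.

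Per UMI, the myelin genes in OPC-like nuclei were not above their level in microglia-like nuclei. Summed, the 9 genes came to 1.87% to 3.93% of the oligodendrocyte-like level of the same library in OPC-like nuclei, against 4.52% to 11.4% in microglia-like nuclei. With the predicted doublets kept, they came to 3.71% to 7.69% in OPC-like nuclei, above microglia-like nuclei in 3 of the 6 libraries. After each nucleus was thinned to 1000 UMIs, Mbp was seen in 3.63% to 9.99% of OPC-like nuclei, against 10.4% to 20.5% of microglia-like nuclei, which do not make myelin. Median depths before thinning were 7158 to 9388 UMIs in OPC-like nuclei and 2798 to 3859 in microglia-like nuclei. In committed precursor-like nuclei 31.7% to 60.6% and in oligodendrocyte-like nuclei 94.98% to 96.7% had an Mbp UMI at that depth. Mal and Ermn were seen in at most 5.00% and 4.55% of thinned committed precursor-like nuclei. Per nucleus the order was another one in part: OPC-like nuclei held more UMIs of the 9 genes on average than microglia-like nuclei in 4 of the 6 libraries, for example 2685 UMIs in 1688 OPC-like nuclei against 1347 UMIs in 1206 microglia-like nuclei of 5xFAD replicate 2. How much of the signal in OPC-like nuclei is background was not tested, and it is not read here as expression.

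Over the 65 sums of nuclei by type and library, the genes whose log levels followed the mean of the 9 most closely included St18, a zinc finger transcription factor of oligodendrocytes (Pearson r = 0.95), Rnf220 (0.94), Nbas (0.93), Plekhh1 (0.93) and Rtn4, which encodes Nogo (0.92). Of the 9 themselves, Mog followed the mean most closely at 0.98, Cnp reached 0.89 and Mal 0.70. The sums of 1 library share its free RNA and depth, and the correlations describe these libraries.

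In oligodendrocyte-like nuclei the myelin genes differed little between the genotypes, and none of the 9 passed the test in any comparison (edgeR's quasi-likelihood test, Benjamini-Hochberg adjusted p under 0.05 over 15709 genes). For 5xFAD-P522R over 5xFAD, 0.0509% of all genes passed, for 5xFAD-P522R over 5xFAD-M28L 0.0191%, and for 5xFAD-M28L over 5xFAD 0%, and DESeq2 also called none of the 9 in any of these comparisons. Before adjustment a p under 0.05 was seen for 1 of the 9 genes where 11.8% of all genes had one, for 2 where 7.09% did, and for 2 where 12.8% did, in the same order of comparisons. Cnp stood at 149 and 135 CPM in 5xFAD-P522R, 133 and 140 in 5xFAD-M28L, and 144 and 135 in 5xFAD. Mog stood at 915 and 927 CPM in 5xFAD-P522R, 900 and 874 in 5xFAD-M28L, and 877 and 961 in 5xFAD. Cldn11 stood at 512 and 477 CPM in 5xFAD-P522R, 486 and 482 in 5xFAD-M28L, and 435 and 526 in 5xFAD. In these 3 genes the difference between replicates of 5xFAD was as large as any difference between group means.

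Opalin and Mag showed the lowest p-values. Opalin stood at 404 and 370 CPM in 5xFAD-P522R, 321 and 253 CPM in 5xFAD-M28L, and 401 and 350 CPM in 5xFAD. Both 5xFAD-M28L libraries lay below the other 4. The log2 fold change was -0.37 ± 0.11 (SE) for 5xFAD-M28L over 5xFAD (adjusted p = 0.332, edgeR) and 0.41 ± 0.11 for 5xFAD-P522R over 5xFAD-M28L (adjusted p = 0.549, edgeR), neither of which passed. With no filter on low counts Opalin passed in both (adjusted p = 0.0260 and 0.0234, edgeR). It also passed in both with the replicate number as a block (adjusted p = 0.00558 and 0.0129, edgeR). What these numbers mark is not stated in the labels. Mag stood at 906 and 901 CPM in 5xFAD-P522R, 773 and 724 CPM in 5xFAD-M28L, and 795 and 812 CPM in 5xFAD. Both 5xFAD-P522R libraries lay above the other 4. Its log2 fold change was 0.24 ± 0.06 for 5xFAD-P522R over 5xFAD-M28L (adjusted p = 0.512, edgeR) and 0.16 ± 0.06 for 5xFAD-P522R over 5xFAD (adjusted p = 0.376, edgeR), and again neither passed.

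Mobp replicates of 5xFAD-M28L and of 5xFAD lay farther apart than any 2 group means. The gene stood at 1654 and 1895 CPM in 5xFAD-P522R, 1773 and 2204 in 5xFAD-M28L, and 1451 and 2016 in 5xFAD, so that replicate 3 was above replicate 2 in all 3 groups. Mal had the same order, with 359 and 427 CPM in 5xFAD-P522R, 333 and 383 in 5xFAD-M28L, and 326 and 354 in 5xFAD. Ermn stood at 272 and 278 CPM in 5xFAD-P522R, 242 and 264 in 5xFAD-M28L, and 301 and 286 in 5xFAD, with both 5xFAD libraries above the other 4. For 5xFAD-M28L over 5xFAD the log2 fold change of Ermn was -0.19 ± 0.08 (adjusted p = 0.386, edgeR). With 2 libraries a group, libraries that do not overlap are common: this held for 3 of the 9 genes in 5xFAD-P522R over 5xFAD, where 45.3% of all genes tested did so, for 5 of 9 against 38.3% in 5xFAD-P522R over 5xFAD-M28L, and for 4 of 9 against 42.5% in 5xFAD-M28L over 5xFAD.

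**Figure D2:**
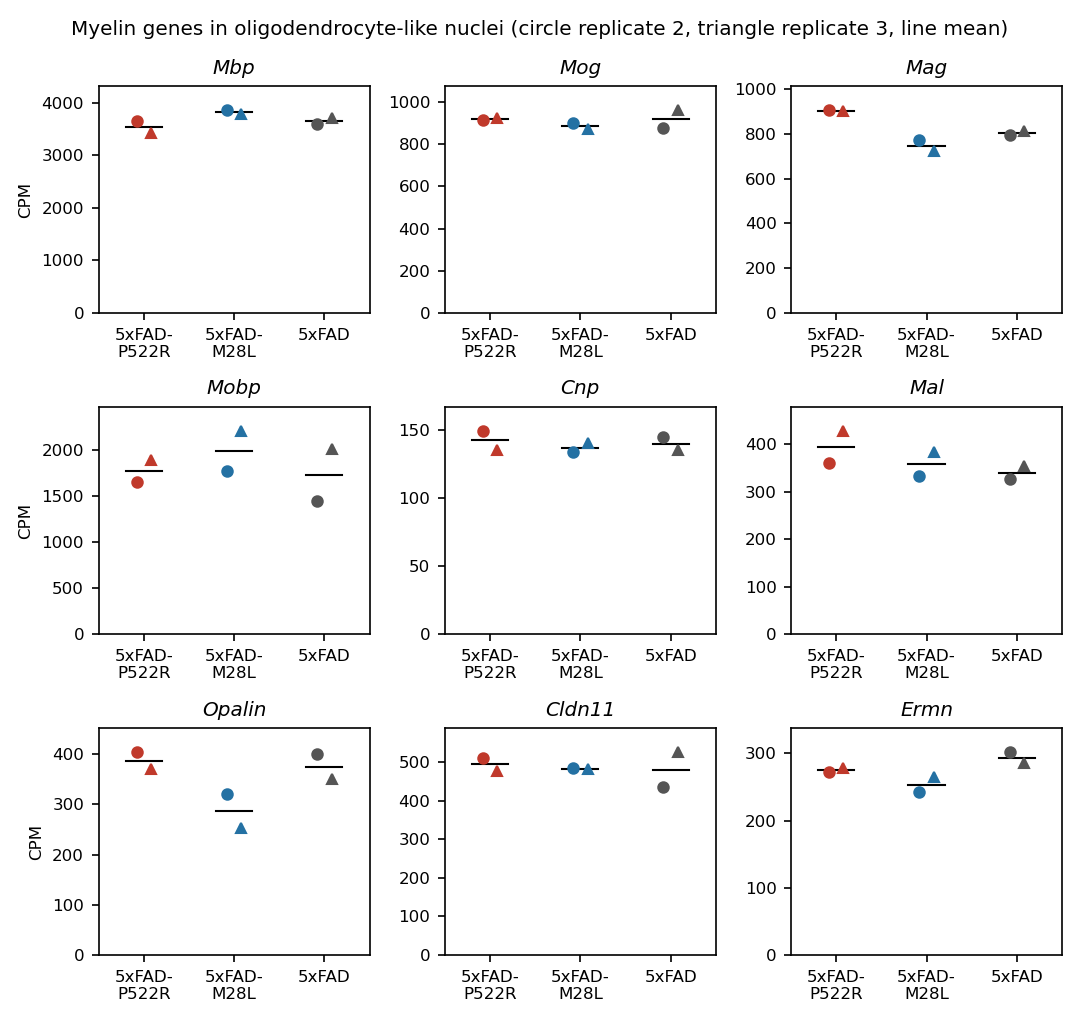
Level of each gene (CPM, axis from 0) in oligodendrocyte-like nuclei of the 6 libraries by group, with a line at the mean of the 2 libraries. Opalin is lowest in both 5xFAD-M28L libraries (321 and 253 CPM), Mag is highest in both 5xFAD-P522R libraries (906 and 901 CPM), and Mobp is higher in replicate 3 of every group.

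Other genes of the sheath did not pass in oligodendrocyte-like nuclei either. None of 26 other myelin and paranode proteins, 16 myelin lipid enzymes, 16 lineage transcription factors and 10 genes of disease-associated oligodendrocytes passed in any of the 3 comparisons. The median log2 fold change of the other myelin proteins was 0.10 for 5xFAD-P522R over 5xFAD, with 23 of 26 above 0, against 0.01 over all genes tested; it was 0.07 for 5xFAD-P522R over 5xFAD-M28L and 0.03 for 5xFAD-M28L over 5xFAD. The median of the lipid enzymes was 0.10, 0.12 and -0.09 in these comparisons, that of the transcription factors -0.05, -0.12 and 0.04, and that of the disease-associated genes 0.09, -0.00 and 0.15.

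The list genes with the lowest p-values, given here by log2 fold change with adjusted p-values of edgeR between 0.155 and 0.740, were of small size where they belong to the sheath. For 5xFAD-P522R over 5xFAD, Cntn2, an adhesion protein of the juxtaparanode, stood at 0.32 and Cadm4, an adhesion protein of the internode, at 0.25. For 5xFAD-P522R over 5xFAD-M28L, Trf, which encodes transferrin, stood at 0.28 and the tetraspanin gene Cd9 at 0.24. For 5xFAD-M28L over 5xFAD, Nfasc, which encodes the neurofascins of node and paranode, stood at 0.40 and Omg, a glycoprotein of oligodendrocytes and neurons, at -0.47. The sheath genes named, picked by lowest p, were above 0 in both comparisons of 5xFAD-P522R, and of both signs for 5xFAD-M28L over 5xFAD. Of all 26 listed, 23 were above 0 for 5xFAD-P522R over 5xFAD, where 52.2% of all genes were. For 5xFAD-P522R over 5xFAD-M28L 17 were, against 50.3%, and for 5xFAD-M28L over 5xFAD 14, against 49.3%.

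Among lipid enzymes Ugt8a, which makes the galactolipids of myelin, was at -0.32 for 5xFAD-M28L over 5xFAD and at 0.29 for 5xFAD-P522R over 5xFAD-M28L. The others were Sqle of cholesterol synthesis at -0.46 for 5xFAD-M28L over 5xFAD, the sulfatide-degrading Arsa at 0.39 and the fatty acid elongase Elovl1 at 0.24 for 5xFAD-P522R over 5xFAD, and Sptlc2 of sphingolipid synthesis at 0.19 for 5xFAD-P522R over 5xFAD-M28L. Among transcription factors, Id4 and Id2, inhibitors of differentiation that astrocytes also express, were at -1.68 and -1.49 for 5xFAD-P522R over 5xFAD. Olig2 and Sox6 were at -0.49 and -0.42 for 5xFAD-P522R over 5xFAD-M28L, and Hes5 and Zfp536 at -1.01 and 0.25 for 5xFAD-M28L over 5xFAD. Of the disease-associated genes, the complement gene C4b was at 0.80 and the protease gene Klk6 at 0.50 for 5xFAD-P522R over 5xFAD. For 5xFAD-P522R over 5xFAD-M28L, Klk6 was at 0.77 and the cell cycle inhibitor Cdkn1a at -1.72. For 5xFAD-M28L over 5xFAD, Cdkn1a was at 1.65 and C4b at 0.82. None of these passed. Id4, Id2, Hes5, Klk6 and Cdkn1a were near the floor, at 0.732 to 7.46 CPM in the libraries compared. C4b stood at 269 and 224 CPM in 5xFAD-P522R, 309 and 182 in 5xFAD-M28L, and 60.9 and 220 in 5xFAD. The SE of both its log2 fold changes was 0.52.

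The 8 genes of the whole table that passed for 5xFAD-P522R over 5xFAD were all lower there, and they included the astrocyte genes Slc1a2 (log2 fold change -1.05 ± 0.07, adjusted p = 0.0181, edgeR) and Slc4a4 (-1.19 ± 0.12, adjusted p = 0.0491, edgeR), both named after their values were seen. The 12 astrocyte markers, of which none was at 0, summed to 373 and 361 CPM in oligodendrocyte-like nuclei of 5xFAD-P522R and 554 and 562 CPM in those of 5xFAD. Astrocyte-like nuclei numbered 309 and 142 in 5xFAD-P522R and 1283 and 745 in 5xFAD. Their part in the result was not tested.

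Among the oligodendrocyte-like nuclei, Opalin and Mal varied between clusters while Mbp, Mog and Mobp stayed level in all but the smallest. Oligodendrocyte-like nuclei were split into 6 clusters, numbered 0 to 5 by size, again without the 9 genes, and the differences between them are described only. Opalin stood at 444 CPM in cluster 1, led by Kit, at 326 and 358 CPM in clusters 0 and 2, and at 412 CPM in cluster 4, with the interferon-response gene Nlrc5 among its leading genes. In cluster 3, led by the phosphodiesterase gene Enpp6 and by Cntn3, it stood at 144 CPM (90.9 to 182 over the libraries), below the lowest library of clusters 0, 1, 2 and 4. Mal was also lowest in cluster 3 at 252 CPM (225 to 290), whereas Mbp was at 3740 CPM there and between 3432 and 3682 CPM in clusters 0, 1, 2 and 4. Nuclei of 1 cluster that was left unnamed, 917 in all and led by A530053G22Rik with Enpp6 among its leading genes, went further in the same direction. By the naming rule 13 of the 16 oligodendrocyte markers were raised in them. They held Mbp at 3961 CPM, but Opalin only at 32.9 CPM (24.4 to 49.2) and Mal at 175 CPM (142 to 203). Ermn, late in committed precursors, was not low in either: 292 CPM in cluster 3 and 324 CPM in the unnamed cluster, against 258 to 284 CPM in clusters 0, 1 and 2.

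Cluster 4 had more Cldn11, at 641 CPM (504 to 719 over the libraries), against 421 to 519 CPM in clusters 0 to 3. Its nuclei numbered 314 and 355 in 5xFAD-P522R, 272 and 213 in 5xFAD-M28L, and 49 and 200 in 5xFAD. The library with 49 nuclei, 5xFAD replicate 2, was also the one with the lowest Cldn11 in the cluster. Cluster 5, 180 nuclei led by Pdzrn3, had the highest level of 8 of the genes, among them Mbp at 6736 CPM, Opalin at 915 CPM and Mal at 700 CPM, but not of Ermn, at 263 CPM. Its median depth was 7396 to 11223 UMIs a nucleus by library, against 2891 to 5417 UMIs in clusters 0 to 4; the part of depth in its levels was not tested.

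**Figure D3:**
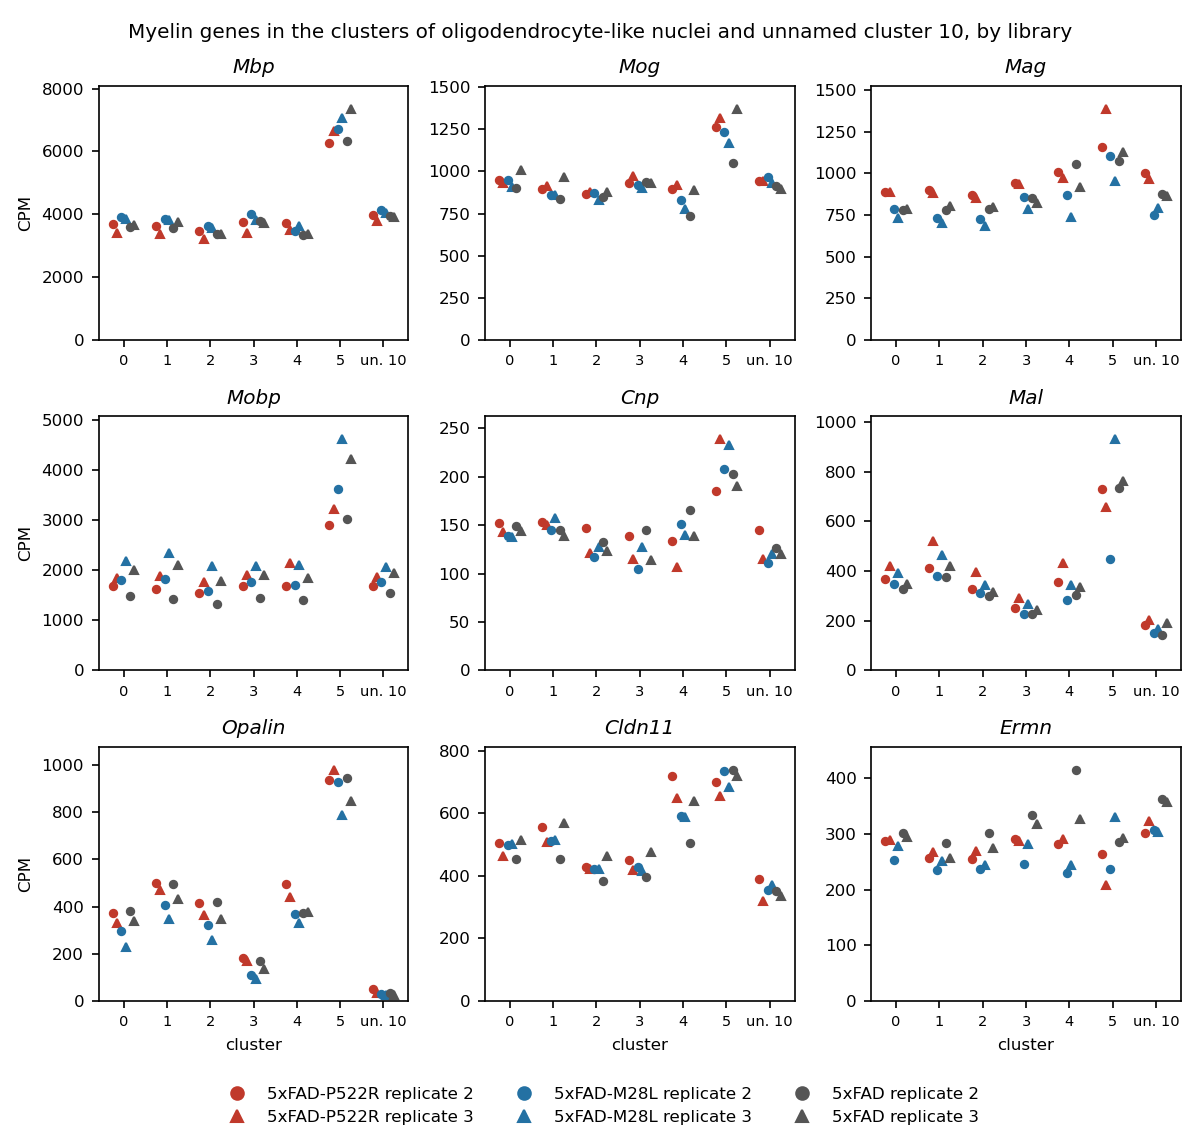
Level of each gene (CPM, axis from 0) in the 6 clusters of oligodendrocyte-like nuclei and in unnamed cluster 10 (un. 10), 1 point for each library. Opalin and Mal fall away in cluster 3 and unnamed cluster 10 in every library while Mbp and Mog do not, and cluster 5 is high in all but Ermn.

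Between genotypes, no gene of the 9 passed within any of clusters 0 to 4, where the test could be run (edgeR, adjusted over all genes of the cluster); cluster 5 had under 20 nuclei in 1 library. Over all genes, 0.015%, 0.0467%, 0.0324%, 0.0178% and 0% passed in clusters 0, 1, 2, 3 and 4 for 5xFAD-P522R over 5xFAD. For 5xFAD-P522R over 5xFAD-M28L these shares were 0.0075%, 0%, 0.0243%, 0.0178% and 0.055%, and for 5xFAD-M28L over 5xFAD 0% passed in each. The lowest p was that of Opalin in cluster 3. There it stood at 182 and 167 CPM in 5xFAD-P522R, 109 and 90.9 CPM in 5xFAD-M28L, and 170 and 134 CPM in 5xFAD, with both 5xFAD-M28L libraries below the other 4. The log2 fold change was 0.79 ± 0.13 for 5xFAD-P522R over 5xFAD-M28L (adjusted p = 0.119, edgeR) and -0.61 ± 0.13 for 5xFAD-M28L over 5xFAD (adjusted p = 0.199, edgeR). In clusters 0, 1, 2 and 4 both 5xFAD-M28L libraries were likewise below both 5xFAD libraries in Opalin, by a log2 fold change between -0.45 and -0.12. With the replicate block, 12 calls were made over all clusters and comparisons (edgeR). Shares of all genes are given for the main fit only, not for the block or for fits that left out a library. These clusters are parts of the same libraries and are not further replicates. Without 5xFAD replicate 2 or replicate 3, 1 and 2 calls were made over all clusters and comparisons.

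In committed precursor-like nuclei none of the 9 passed in any comparison (edgeR, 7933 genes, of which 0% passed; DESeq2 also called none), and 1 of 9 unadjusted p-values was under 0.05 for 5xFAD-P522R over 5xFAD-M28L, against 4.76% over all genes. In the other comparisons 0 of 9 were, against 5.31% for 5xFAD-P522R over 5xFAD and 6.01% for 5xFAD-M28L over 5xFAD. The 1 gene was Mbp, at a log2 fold change of -0.64 ± 0.29 (adjusted p = 0.998, edgeR), with libraries that overlapped. Mag stood there at 386 and 150 CPM in 5xFAD-P522R, 258 and 432 in 5xFAD-M28L, and 170 and 347 in 5xFAD, so that the replicates of a group lay farther apart than the group means. In OPC-like nuclei none passed either (edgeR, 14659 genes, of which 0% passed; DESeq2 called none), with 7 of 9 unadjusted p-values under 0.05 for 5xFAD-P522R over 5xFAD, against 11.7% over all genes. In the other comparisons 2 of 9 were, against 5.76% for 5xFAD-P522R over 5xFAD-M28L and 11.9% for 5xFAD-M28L over 5xFAD. Mag there, the gene with the lowest p for 5xFAD-P522R over 5xFAD, stood at 40.3 and 29.9 CPM in 5xFAD-P522R, 16.6 and 25.2 CPM in 5xFAD-M28L, and 19.2 and 15.7 CPM in 5xFAD, a log2 fold change of 0.96 ± 0.21 for 5xFAD-P522R over 5xFAD (adjusted p = 0.375, edgeR). All 6 lie below the level of Mag in microglia-like nuclei, 45.8 to 116 CPM. With the replicate block, 6 of the 9 genes passed in OPC-like nuclei for 5xFAD-P522R over 5xFAD and 2 in each other comparison (edgeR). The shares of all genes above are those of the main fit. They are not given for the block or for fits that left out a library. Without 5xFAD-M28L replicate 2, 1 gene passed for 5xFAD-P522R over 5xFAD and 1 for 5xFAD-M28L over 5xFAD, and without 5xFAD-M28L replicate 3, 1 for 5xFAD-P522R over 5xFAD.

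Outside the lineage all 9 genes were found in every type of nucleus, and 3 of them, Mal, Cldn11 and Cnp, stood out. The medians of the other 6 lay between 2.41% and 9.75% of their oligodendrocyte-like level in 6 of the 8 types, between 7.59% and 11.9% in pericyte and smooth muscle-like nuclei, and between 9.49% and 15.6% in border macrophage-like nuclei. Mal was nearly as high in endothelial-like nuclei as in oligodendrocyte-like nuclei: 246 and 322 CPM in 5xFAD-P522R, 335 and 314 CPM in 5xFAD-M28L, and 227 and 332 CPM in 5xFAD. That is 68.4% to 101% of the oligodendrocyte-like level of the same library, whereas the medians of Mbp, Mog and Opalin in the same nuclei were 7.02%, 4.17% and 2.41%. Thinned to 1000 UMIs, 15.1% to 28.1% of endothelial-like nuclei had a Mal UMI, against 2.74% to 5.44% of microglia-like nuclei, at median depths before thinning of 3013 to 4304 and 2798 to 3859 UMIs. Endothelial-like nuclei numbered 24 to 154 a library.

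Cldn11 stood out in fibroblast-like nuclei, at a median of 18.7% of its oligodendrocyte-like level, and there in 1 of 2 clusters. In the cluster led by Bnc2 and Slc47a1, 213 nuclei in all, it stood at 244 and 60.1 CPM in 5xFAD-P522R, 120 and 222 CPM in 5xFAD-M28L, and 301 and 199 CPM in 5xFAD. In the cluster led by Ranbp3l and Slc6a20a, 710 nuclei, it stood at 55.6 and 69.9 CPM in 5xFAD-P522R, 37.9 and 59.1 CPM in 5xFAD-M28L, and 46.5 and 29.0 CPM in 5xFAD. The first cluster was above the second in 5 of the 6 libraries; in 5xFAD-P522R replicate 3, the exception, it held 11 nuclei and 5 Cldn11 UMIs. Cldn11 encodes a tight junction protein that is also known from the meningeal barrier layer.

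Cnp was the third. Its median was 8.48% to 22.4% of the oligodendrocyte-like level in all types outside the lineage, the highest of the 9 in 6 of those 8 types, with Mal first in endothelial-like nuclei and Cldn11 first in fibroblast-like nuclei. In GENCODE vM21 (GRCm38) Cnp overlaps Dnajc7 on the opposite strand by 8912 bases, and whether the counting used strand is not given in the sources used here, so reads of the pair could not be told apart if it did not. Ermn overlaps Galnt5 on the opposite strand by 748 bases and Mobp overlaps Gm38642 on its own strand by 2447 bases. Mag, Mal, Opalin and Cldn11 overlap no annotated gene.

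**Figure D4:**
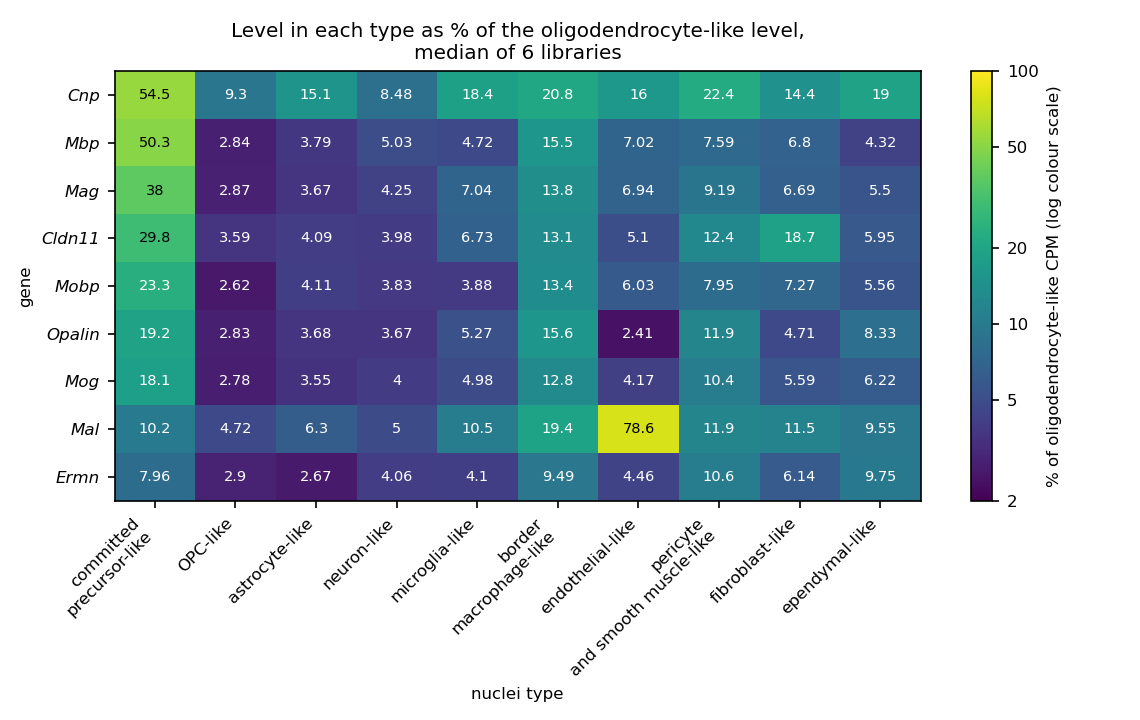
Level of each gene in 10 types of nuclei as a percentage of its level in oligodendrocyte-like nuclei of the same library, median of 6 libraries, on a logarithmic colour scale with the value in each cell. Genes are ordered by their share in committed precursor-like nuclei, and Mal in endothelial-like nuclei (78.6%), Cldn11 in fibroblast-like nuclei (18.7%) and the row of Cnp stand out.

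The amount of myelin RNA in other nuclei differed between libraries, and in microglia-like and astrocyte-like nuclei it was highest in 5xFAD-P522R. Summed over the 9 genes it came to 7.005% and 11.4% of the oligodendrocyte-like level in microglia-like nuclei of 5xFAD-P522R, against 4.73% and 5.09% in 5xFAD-M28L and 4.52% and 5.36% in 5xFAD. In astrocyte-like nuclei it came to 6.15% and 7.06% in 5xFAD-P522R, 3.68% and 4.31% in 5xFAD-M28L, and 3.35% and 2.93% in 5xFAD. Both 5xFAD-P522R libraries lay above the other 4 in both types. In neuron-like nuclei the 5xFAD-P522R libraries stood at 4.38% and 6.78%, against 4.64% and 4.77% in 5xFAD-M28L, which they overlapped, and 4.32% and 3.04% in 5xFAD, which they lay above. Both 5xFAD-P522R libraries were again above the other 4 in pericyte and smooth muscle-like nuclei, with 18.99% and 11.4% in 5xFAD-P522R, 7.54% and 7.85% in 5xFAD-M28L, and 7.73% and 8.87% in 5xFAD. This did not hold in border macrophage-like nuclei, where 5xFAD-P522R held both the lowest and the highest share, 7.10% and 22.3%, against 13.04% and 16.4% in 5xFAD-M28L and 10.2% and 19.1% in 5xFAD. Nor did it hold for Mbp in endothelial-like nuclei, where the groups overlapped. After TMM scaling Mbp stood there at 402 and 185 CPM in 5xFAD-P522R, 123 and 386 in 5xFAD-M28L, and 327 and 130 in 5xFAD.

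In astrocyte-like nuclei, Mbp and Mobp were higher in 5xFAD-P522R than in 5xFAD and passed the test. Mbp stood at 233 and 285 CPM in 5xFAD-P522R, 133 and 156 CPM in 5xFAD-M28L, and 104 and 94.1 CPM in 5xFAD, a log2 fold change of 1.29 ± 0.13 for 5xFAD-P522R over 5xFAD (adjusted p = 0.0241, edgeR). Mobp stood at 120 and 154 CPM in 5xFAD-P522R, 75.4 and 87.5 CPM in 5xFAD-M28L, and 47.1 and 54.1 CPM in 5xFAD, a log2 fold change of 1.32 ± 0.16 (adjusted p = 0.0255, edgeR). The 3 groups did not overlap in either gene. These 2 of the 9 genes were called where 0.0295% of the 13577 genes tested were; the other called genes were Map1b and Ank3, named after their values were seen. DESeq2 called Mbp and gave Mobp no adjusted p. Both calls were lost without either library of 5xFAD-P522R (adjusted p = 0.129 and 0.399 for Mbp and 0.139 and 0.399 for Mobp without replicate 2 and without replicate 3, edgeR), at log2 fold changes of 1.43 and 1.15 for Mbp and 1.51 and 1.16 for Mobp, and with called doublets kept, where the log2 fold change was 0.65 for Mbp and 0.79 for Mobp. All but Ermn of the 9 genes were higher without overlap in 5xFAD-P522R than in 5xFAD, where 29.9% of all genes were, and 7 of 9 were so over 5xFAD-M28L, where 27.9% were. In the other comparisons 0 of the 9 and 0% of all genes passed in astrocyte-like nuclei (DESeq2 called 1 for 5xFAD-P522R over 5xFAD-M28L). With the replicate block, 2 of the 9 passed for 5xFAD-M28L over 5xFAD (edgeR), and the share of all genes passing with the block is not given. In the main fit an unadjusted p under 0.05 was seen for 6 of 9 genes for 5xFAD-P522R over 5xFAD (9.83% of all genes), 4 of 9 for 5xFAD-P522R over 5xFAD-M28L (7.47%) and 2 of 9 for 5xFAD-M28L over 5xFAD (6.25%). Xist-positive and Y-positive astrocyte-like nuclei numbered 85 and 155 in 5xFAD-P522R replicate 2 and 60 and 55 in replicate 3. They numbered 215 and 307, then 171 and 244, in 5xFAD-M28L, and 642 and 447, then 332 and 284, in 5xFAD.

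Astrocyte-like nuclei formed 2 clusters. In the larger, led by Slc1a2, the 9 genes summed to 525 and 653 CPM in 5xFAD-P522R, 315 and 352 CPM in 5xFAD-M28L, and 277 and 266 CPM in 5xFAD. In the smaller, led by Myoc, they summed to 921 and 283 CPM in 5xFAD-P522R, 545 and 818 CPM in 5xFAD-M28L, and 297 and 316 CPM in 5xFAD. There 5xFAD-P522R held both the highest and the lowest library, with 15 and 14 nuclei.

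The 16 oligodendrocyte markers were also highest in both 5xFAD-P522R libraries in astrocyte-like nuclei as a whole. None was at 0, and they summed to 1156 and 969 CPM in astrocyte-like nuclei of 5xFAD-P522R, 680 and 848 CPM in those of 5xFAD-M28L, and 689 and 599 CPM in those of 5xFAD. UMIs of the 9 genes made up 0.416% and 0.437% of all UMIs of a library in 5xFAD-P522R, 0.371% and 0.431% in 5xFAD-M28L, and 0.300% and 0.339% in 5xFAD. Their part in the calls was not tested. The top 1% of astrocyte-like nuclei held 15.3% and 22.4% of the UMIs of the 9 genes in 5xFAD-P522R, 19.5% and 24.9% in 5xFAD-M28L, and 21.1% and 20.03% in 5xFAD.

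In microglia-like nuclei 0 of the 9 genes passed in each comparison (edgeR, 13679 genes, of which 0% passed for 5xFAD-P522R over 5xFAD and 0.00731% in each of the others), although DESeq2 called 2 for 5xFAD-P522R over 5xFAD and 2 for 5xFAD-P522R over 5xFAD-M28L. The count of calls by edgeR also rose in some fits that left out a library, where a group is left with 1 library. The shares of all genes above are those of the main fit, and they are not given for DESeq2 or for these fits. Before adjustment, 6 of 9 had a p under 0.05 for 5xFAD-P522R over 5xFAD (11.2% of all genes), 8 of 9 for 5xFAD-P522R over 5xFAD-M28L (10.8%) and 1 of 9 for 5xFAD-M28L over 5xFAD (5.45%). Mbp stood at 261 and 374 CPM in 5xFAD-P522R, 159 and 169 CPM in 5xFAD-M28L, and 133 and 184 CPM in 5xFAD, a log2 fold change of 0.99 ± 0.20 for 5xFAD-P522R over 5xFAD (adjusted p = 0.238, edgeR). Opalin stood at 27.8 and 42.8 CPM in 5xFAD-P522R, 15.1 and 13.4 CPM in 5xFAD-M28L, and 15.9 and 18.3 CPM in 5xFAD, a log2 fold change of 1.30 ± 0.24 for 5xFAD-P522R over 5xFAD-M28L (adjusted p = 0.158, edgeR). The 5xFAD-P522R libraries were above the others in both genes, though short of the threshold. With the replicate block, 5 of the 9 genes passed for 5xFAD-P522R over 5xFAD and 5 for 5xFAD-P522R over 5xFAD-M28L (edgeR). The share of all genes passing with the block is not given either. Without 5xFAD-P522R replicate 3 the log2 fold change of Mbp for 5xFAD-P522R over 5xFAD was 0.68 (adjusted p = 0.866, edgeR) and that of Opalin for 5xFAD-P522R over 5xFAD-M28L 0.91 (adjusted p = 0.877, edgeR). All 9 genes were higher without overlap in 5xFAD-P522R than in 5xFAD-M28L, where 26.1% of all genes were, and 6 of 9 were so over 5xFAD, where 21.9% were. Cnp was not higher over 5xFAD, with 25.9 and 28.6 CPM in 5xFAD-P522R, against 27.9 and 29.7 CPM in 5xFAD. Xist-positive and Y-positive microglia-like nuclei numbered 528 and 173 in 5xFAD-P522R replicate 2 and 812 and 308 in replicate 3. They numbered 397 and 426, then 665 and 401, in 5xFAD-M28L, and 409 and 507, then 905 and 406, in 5xFAD.

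In microglia-like nuclei both clusters had the higher sums in 5xFAD-P522R. In the cluster led by Mamdc2 and Lilrb4a the 9 genes summed to 660 and 1149 CPM in 5xFAD-P522R, 462 and 468 CPM in 5xFAD-M28L, and 422 and 499 CPM in 5xFAD. In the cluster that held Siglech and P2ry12, genes of homeostatic microglia, among its leading genes they summed to 558 and 740 CPM in 5xFAD-P522R, 389 and 460 CPM in 5xFAD-M28L, and 359 and 473 CPM in 5xFAD. In both clusters each 5xFAD-P522R library lay above all 4 others. The oligodendrocyte markers, none of the 16 at 0, summed to 1473 and 2562 CPM in microglia-like nuclei of 5xFAD-P522R, 1106 and 1126 CPM in those of 5xFAD-M28L, and 904 and 1101 CPM in those of 5xFAD; their part was not tested. A further cluster with microglia markers was left unnamed because 44.6% of its nuclei were called doublets. Its 731 nuclei that were not called held Mbp at 1675 CPM, and 294 of them came from 5xFAD-P522R replicate 3.

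**Figure D5:**
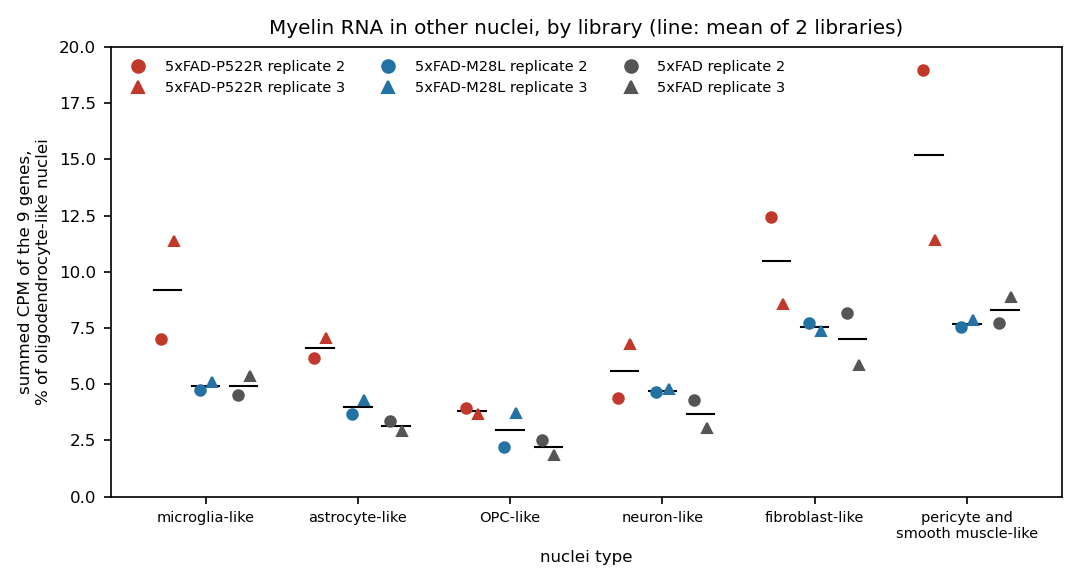
Summed level of the 9 genes in 6 types of nuclei as a percentage of the oligodendrocyte-like level of the same library (axis from 0), by group, with a line at the mean of the 2 libraries. In microglia-like and astrocyte-like nuclei both 5xFAD-P522R libraries lie above the other 4, at 7.005% and 11.4% and at 6.15% and 7.06%.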

How the data were processed

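Nuclei were profiled with 10x Genomics 3' chemistry, per the labels' protocols. The deposited values are raw counts of UMIs per gene and barcode that the authors made with Cell Ranger 6.1.2, or 5.0.1 for 5xFAD-P522R replicate 3, per the file headers; the submitters' processing notes name mm10. Whether introns were counted is not given in the sources used here. Barcodes under 500 UMIs or 300 genes or over 5% mitochondrial UMIs were left out, and doublets were called with Scrublet at 1 common threshold (3.67% to 4.68% of a library). Scrublet's own threshold was 0.731 and 0.732 in 5xFAD-P522R, against 0.284 to 0.366 in the other libraries. The common threshold, 0.311, was the median over the libraries other than those of 5xFAD-P522R. Clustering used scanpy 1.11.5 (2000 variable genes without the 9 genes, 30 components, Leiden resolution 1). A cluster was named X-like from marker lists, and needed at least 3 markers and leading genes that did not go against the name.

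Counts were summed by type and library where every library had at least 20 nuclei, filtered with filterByExpr and tested in edgeR 4.0.16 (quasi-likelihood, TMM, all 6 libraries, no replicate block, Benjamini-Hochberg over all genes tested, threshold 0.05). The alternatives were DESeq2 1.42.0, no filter, other clusterings and cell filters, nuclei of 1 sex (Xist-positive or Y-positive), 4 libraries in place of 6, a replicate block and leaving out each library. Named genes were the 9 genes, then the 2 lowest p-values of each list in each comparison, of which a selection is printed, and the 6 genes most like the mean of the 9 (log2 of CPM plus 1), 1 of which is not reported here. The members and the lists were chosen with earlier results of these data known. The fit was tested on simulated data. Counting intervals are exact Poisson intervals at 95%.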

Additional observations from a re-analysis of the deposited data

Results flagged for a closer look

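Cldn11 in oligodendrocyte-like nuclei was flagged because its log2 ratio of 5xFAD-P522R to 5xFAD-M28L had opposite signs in nuclei of females and of males. It was picked by this pattern, and how many genes, comparisons and types of nuclei were searched is not given. In nuclei with Xist UMIs and no UMI of Y-linked genes it stood at 583 and 543 CPM in 5xFAD-P522R and 463 and 495 CPM in 5xFAD-M28L, a log2 ratio of the group means of 0.23. In nuclei with UMIs of Y-linked genes and no Xist UMI it stood at 438 and 401 CPM in 5xFAD-P522R and 509 and 479 CPM in 5xFAD-M28L, a log2 ratio of -0.24. The log2 ratio was thus 0.468 higher in Xist-positive than in Y-positive nuclei. Both 5xFAD-P522R libraries lay above both 5xFAD-M28L libraries in Xist-positive nuclei and below both in Y-positive nuclei. Libraries that do not overlap are common in this comparison: 38.3% of all genes tested in oligodendrocyte-like nuclei of both sexes together had them. The share of genes whose libraries separate in opposite directions in nuclei of each sex is not given. A pattern picked in this way can arise by chance, so no difference between the sexes is read from it. Whether the sexes differ was not tested.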

How the results depend on the processing

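Of 323 values under alternatives of 24 counts and levels, 273 were unchanged. For a count of calls this means equal, as with 0 that stayed 0, or within 1.5 times. For a level it means within the spread between libraries. The 273 include values that could not differ, since allowing the 9 genes among the variable genes left the main clustering as it was. The log2 fold changes of Mbp and Mobp called in astrocyte-like nuclei kept their sign throughout. Log2 fold changes that did not pass changed sign in places, such as that of Cldn11 in oligodendrocyte-like nuclei for 5xFAD-P522R over 5xFAD-M28L (-0.28 to 0.20) and that of Ermn in astrocyte-like nuclei for 5xFAD-P522R over 5xFAD (-1.36 to 0.36). The other 50 are given here, as counts of the 9 genes called unless said otherwise, and the cause was not tested. Shares of all genes called under these alternatives are not given, so the counts cannot be set against them. With no filter on low counts, the counts were 1 for 5xFAD-P522R over 5xFAD-M28L and 1 for 5xFAD-M28L over 5xFAD in oligodendrocyte-like nuclei, 2 for 5xFAD-P522R over 5xFAD-M28L in committed precursor-like nuclei, 6, 2 and 2 in OPC-like nuclei (5xFAD-P522R over 5xFAD, 5xFAD-P522R over 5xFAD-M28L, 5xFAD-M28L over 5xFAD), 7 and 8 in microglia-like nuclei (the first 2 of these comparisons), and 3 and 2 in astrocyte-like nuclei (the last 2). DESeq2 gave 2 and 2 in microglia-like nuclei and 1 and 1 in astrocyte-like nuclei for 5xFAD-P522R over 5xFAD and over 5xFAD-M28L. Y-positive nuclei alone gave 3 and 3 in microglia-like nuclei in these comparisons. In astrocyte-like nuclei the 2 calls for 5xFAD-P522R over 5xFAD became 0 with Xist-positive nuclei alone (log2 fold changes of 1.13 for Mbp and 1.27 for Mobp), with called doublets kept (0.65 and 0.79) and with only the 4 libraries compared (1.29 and 1.33), and resolution 2 gave 2 calls for 5xFAD-P522R over 5xFAD-M28L. With only the 4 libraries compared, OPC-like nuclei gave 1 for 5xFAD-P522R over 5xFAD and microglia-like nuclei 2 for 5xFAD-P522R over 5xFAD-M28L. Leaving out each library gave 0 to 1 in OPC-like nuclei for 5xFAD-P522R over 5xFAD and for 5xFAD-M28L over 5xFAD, 0 to 1 in committed precursor-like nuclei and 0 to 6 in microglia-like nuclei for 5xFAD-P522R over 5xFAD-M28L, 0 to 5 in microglia-like nuclei and 0 to 2 in astrocyte-like nuclei for 5xFAD-P522R over 5xFAD, 0 to 2 over the clusters of oligodendrocyte-like nuclei, and 0 in the other comparisons. Where a group is left with 1 library, that library is assumed to vary like the others. With called doublets kept, the summed level of the 9 genes had a median of 541 CPM in OPC-like nuclei and 594 CPM in astrocyte-like nuclei, or 6.18% and 6.63% of the oligodendrocyte-like level; with the 9 genes put into the variable genes, an alternative chosen after seeing the data, it was 185 CPM and 2.06% in OPC-like nuclei. A second alternative so chosen, adding the unnamed cluster led by A530053G22Rik to the oligodendrocyte-like nuclei, moved no count. The replicate numbers are shared across groups, but with 2 numbers and no statement of what they mark they are not a stated pairing; same-numbered libraries deviated together in oligodendrocyte-like nuclei (correlations of 0.437 to 0.552) and less so in committed precursor-like nuclei (-0.131 to 0.147), with 0.0821 to 0.459 in the other 3 types. With the replicate block, the counts were 1 for 5xFAD-P522R over 5xFAD-M28L and 1 for 5xFAD-M28L over 5xFAD in oligodendrocyte-like nuclei (Opalin in both, adjusted p = 0.0129 and 0.00558, edgeR), 6, 2 and 2 in OPC-like nuclei, 5 and 5 in microglia-like nuclei for 5xFAD-P522R over 5xFAD and over 5xFAD-M28L, 2 in astrocyte-like nuclei for 5xFAD-M28L over 5xFAD, and 12 over the clusters. Committed precursor-like nuclei of 1 sex were too few to be fitted, and allowing the 9 genes among the variable genes changed nothing, since none ranked high enough. The number of nuclei limits the rarer types, with 38 to 72 committed precursor-like and 24 to 154 endothelial-like nuclei a library.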
